A study of Mus musculus with 6 samples.

Results

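The 10 genes described here encode the inflammasome and gasdermin machinery that is transcribed in colon epithelium: the sensors Nlrp6 and Aim2, the adaptor Pycard, the inflammatory caspases Casp1 and Casp4, the cytokine Il18, and the pore-forming gasdermins Gsdmd, Gsdmc2, Gsdmc3 and Gsdmc4. They were chosen by symbol from a table of 55487 genes, each symbol matched 1 row, and all 10 passed the filter on low counts that 14650 genes passed. RNA-seq was performed on intestinal epithelial cells (IECs) that were released from mouse colon with EDTA, in 3 libraries from Nsd2 f/f mice and 3 from Nsd2 Vil-KO mice. Both groups were bred on C57BL/6J, carried loxP-flanked Nsd2 alleles and were given the epithelial toxicant dextran sodium sulphate (DSS) in drinking water. The study describes 2% DSS for 5 days from an age of 2 months, and gives no day of collection for these cells. Nsd2 f/f mice, titled WT in the labels, were littermates that kept the gene. In Nsd2 Vil-KO mice, Cre driven by the Villin promoter deletes it from intestinal epithelium but not from leukocytes or stroma that remain in the preparation. Nothing states whether each library was 1 animal or a pool, so p-values measure the spread between these libraries.

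An inflammasome forms when a sensor binds a microbial or danger signal and recruits caspase-1, often through the adaptor ASC, the product of Pycard. Caspase-1 cleaves the precursors of IL-18 and IL-1β, and both caspase-1 and caspase-11, the product of mouse Casp4, cleave gasdermin D, whose freed end opens pores in the plasma membrane. Colon epithelium is a main source of IL-18, NLRP6 is best known from intestinal epithelium, and the Gsdmc genes form a cluster of gene copies that is strongly transcribed in mouse intestine.

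The largest differences between libraries were in the Gsdmc genes, which lie side by side on chromosome 15 of GRCm38. Gsdmc2 (ENSMUSG00000056293) lies from 63824346 to 63845177, Gsdmc3 (ENSMUSG00000055827) from 63857724 to 63878558 and Gsdmc4 (ENSMUSG00000055748) from 63891264 to 63912297, all on the minus strand.

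Promoter windows from RefSeq (GRCm38.p6), 250 bases before to 50 after the start site, were found for 7 of the 10 genes. The windows of Gsdmc3, which stands for the cluster, of Aim2 and Pycard, whose genotypes did not overlap, and of Il18, which held the only motif match, are printed 5′ to 3′. Capitals mark the match. The window of Aim2 lies inside the span that the GENCODE annotation gives this gene, which has further start sites.
Gsdmc3, chr15:63878509-63878808, minus strand: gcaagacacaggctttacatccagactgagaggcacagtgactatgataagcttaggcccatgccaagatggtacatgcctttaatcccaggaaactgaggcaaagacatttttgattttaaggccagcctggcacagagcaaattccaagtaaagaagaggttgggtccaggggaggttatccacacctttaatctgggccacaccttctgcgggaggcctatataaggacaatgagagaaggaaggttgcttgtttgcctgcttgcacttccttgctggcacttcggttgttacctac
Aim2, chr1:173420354-173420653, plus strand: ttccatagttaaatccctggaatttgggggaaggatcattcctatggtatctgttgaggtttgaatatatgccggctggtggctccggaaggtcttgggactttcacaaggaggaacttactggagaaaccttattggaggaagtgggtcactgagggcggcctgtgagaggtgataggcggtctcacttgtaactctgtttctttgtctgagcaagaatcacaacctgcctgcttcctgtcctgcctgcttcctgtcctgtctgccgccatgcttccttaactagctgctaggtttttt
Pycard, chr7:127993818-127994117, minus strand: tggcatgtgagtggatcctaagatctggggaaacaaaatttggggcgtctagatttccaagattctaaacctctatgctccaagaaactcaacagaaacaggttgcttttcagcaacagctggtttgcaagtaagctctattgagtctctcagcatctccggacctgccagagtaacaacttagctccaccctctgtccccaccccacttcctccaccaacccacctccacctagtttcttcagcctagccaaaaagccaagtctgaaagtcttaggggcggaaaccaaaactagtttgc
Il18, chr9:50554450-50554749, plus strand: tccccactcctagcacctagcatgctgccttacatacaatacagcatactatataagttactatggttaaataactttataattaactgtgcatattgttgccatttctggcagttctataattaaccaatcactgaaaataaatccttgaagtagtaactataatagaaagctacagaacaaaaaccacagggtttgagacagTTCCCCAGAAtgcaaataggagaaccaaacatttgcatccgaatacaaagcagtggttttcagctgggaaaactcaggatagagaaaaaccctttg
Motifs were searched on both strands: the interferon-stimulated response element, GAAA and GAAA with any 2 bases between them, the gamma-activated site, TTC and GAA 3 bases apart, and the STAT6 form of that site, TTC and GAA 4 bases apart. They occurred in 3.44%, 8.30% and 6.95% of 32851 promoter windows of this length. Casp4 had more than 1 window. In the windows of the 7 genes only the STAT6 form was found, 1 time, in that of Il18. It began at position -46 from the start site and overlapped no other motif.

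The libraries held between 15439123 and 20350539 counted reads, and the floor of detection, 3 counts, was 0.146 to 0.242 CPM, the count divided by the TMM-scaled library size. In each triplet of values the libraries are listed in the order of replicates 1, 2 and 3. The deleted gene, Nsd2, had 47.9, 51.2 and 24.6 CPM for Nsd2 f/f and 24.2, 10.4 and 20.8 CPM for Nsd2 Vil-KO. The value of Nsd2 f/f replicate 3 was close to that of Nsd2 Vil-KO replicate 1, and the log2 fold change was −1.16 (standard error 0.39, unadjusted p = 0.0217, adjusted p = 0.992 with Benjamini-Hochberg by edgeR's quasi-likelihood test). Leaving out both libraries that stood apart, described next, gave −1.13 (standard error 0.14, unadjusted p = 7.84e-05, adjusted p = 0.119 by edgeR). Epithelial markers summed to between 11338 and 17541 CPM over the 6 libraries, with all 8 detected in each, against 17.1 to 101.8 CPM for 3 leukocyte markers. Nsd2 f/f replicate 3 and also Nsd2 Vil-KO replicate 2 stood apart from the other 4 libraries. Xist transcripts were at 4296 and 3684 counts in them against 5 or fewer elsewhere, and mitochondrial genes took 19.6% of the counts in Nsd2 f/f replicate 3 against 5.51% to 9.13% elsewhere. The labels give neither the sex of the animals nor a batch. With a term for Xist transcripts in the edgeR fit, 1 member and 1145 of all tested genes passed the criterion defined below, and with mitochondrial genes left out 0 members and 486 genes, against 0 and 482 in the reported fit. The difference of each member is given with all 6 libraries and without these 2.

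None of the 10 genes passed the screening criterion of a fold change above 1.2 with an unadjusted p below 0.05. The count was 0 with edgeR, DESeq2 and limma-voom alike, 0 of the 10 had an unadjusted p below 0.05 in these tools, and 0 had an adjusted p below 0.05. Over all 14650 genes tested, 3.29% passed the criterion (1.65% higher and 1.65% lower in Nsd2 Vil-KO) and 0.0% had an adjusted p below 0.05. The members' median log2 fold change was −0.26, with 6 lower and 4 higher in Nsd2 Vil-KO, against 0.0012 for all genes tested. The genotypes did not overlap in 2 members, which is 20% against 9.9% of all genes tested. Of these, 1 was higher and 1 lower in Nsd2 Vil-KO, against 5.21% and 4.7% of all genes tested. The libraries that stood apart set many of the extremes: Nsd2 Vil-KO replicate 2 had the lowest value of 6 members, and Nsd2 f/f replicate 3 the highest of 7 and the lowest of 2.

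**Figure D1:**
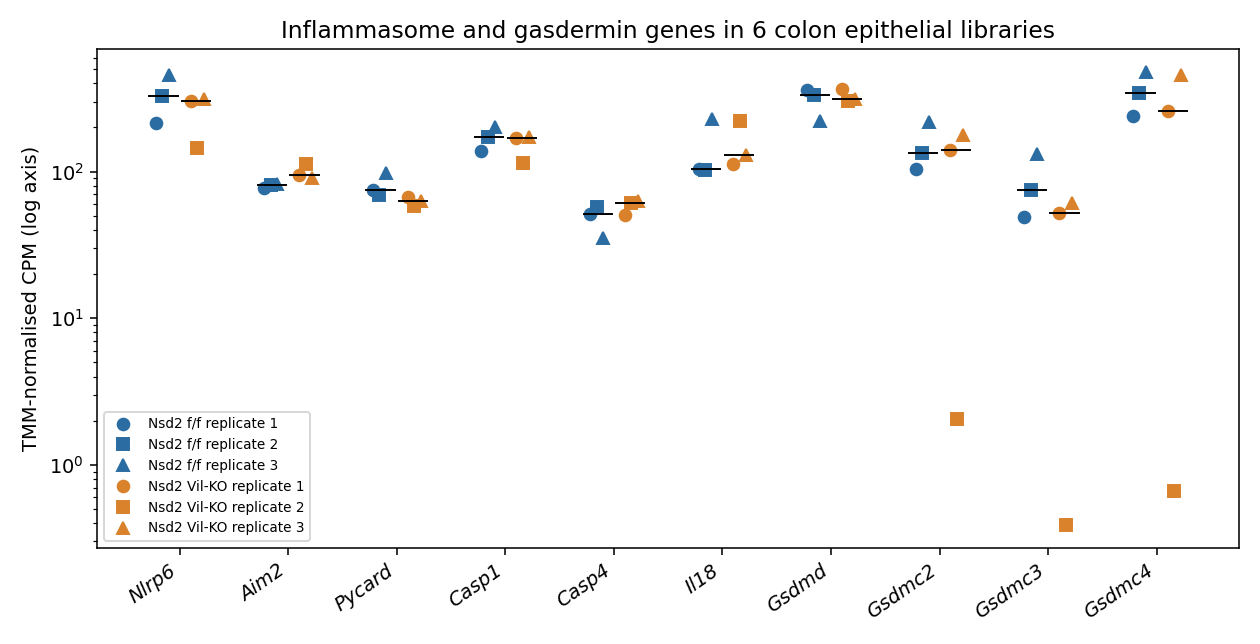
TMM-normalised CPM of the 10 genes on a log axis, with 1 point per library (blue, Nsd2 f/f; orange, Nsd2 Vil-KO; marker shape, replicate) and a black line at the median of each genotype. Apart from Gsdmc2, Gsdmc3 and Gsdmc4 in Nsd2 Vil-KO replicate 2, at 2.05, 0.388 and 0.666 CPM, all points lie between 35.3 and 477.1 CPM.

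Gasdermin C copies were nearly absent from a single Nsd2 Vil-KO library and abundant in every other. Gsdmc4 had 240.9, 343.3 and 477.1 CPM for Nsd2 f/f and 258.5, 0.666 and 452.9 CPM for Nsd2 Vil-KO. Gsdmc2 had 103.6, 134.5 and 216.9 CPM against 140.3, 2.05 and 176.7 CPM in the same order. Gsdmc3, the least abundant copy, had 49.1, 75.2 and 131.7 CPM against 52.1, 0.388 and 61.3 CPM. In Nsd2 Vil-KO replicate 2 these were 12, 37 and 7 counted reads, with exact 95% Poisson intervals of 6.2 to 21.0, 26.1 to 51.0 and 2.81 to 14.4 reads that cover counting error only. The lowest of the other 5 libraries was 362-fold higher for Gsdmc4, 50.5-fold for Gsdmc2 and 126-fold for Gsdmc3. Among those 5 libraries the highest value exceeded the lowest by only 1.98-fold, 2.09-fold and 2.68-fold. Fewer cells that transcribe these genes and less RNA per cell cannot be told apart in such bulk libraries, and no cause of the low values was tested.

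A single library decided the genotype differences of these genes, whose errors were wide. They were −0.51 (log2 fold change, standard error 1.12) for Gsdmc2, −1.17 (1.17) for Gsdmc3 and −0.58 (1.38) for Gsdmc4, with adjusted p = 0.996, 0.992 and 0.996 by edgeR. Without Nsd2 Vil-KO replicate 2 these were 0.06, −0.59 and 0.01, so Gsdmc2 and Gsdmc4 changed sign. Without both libraries that stood apart they were 0.42, −0.12 and 0.29. In those 4 libraries Gsdmc2 passed the criterion as higher in Nsd2 Vil-KO, at 140.3 and 176.7 against 103.6 and 134.5 CPM (unadjusted p = 0.0429, adjusted p = 0.441 by edgeR). The other 2 copies did not pass it there. Of all genes tested in that fit, 10.95% passed. The libraries left out held the highest Nsd2 f/f and the lowest Nsd2 Vil-KO value of each copy. Their removal therefore raised each difference.

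The copies resemble each other, so the counting could have divided reads between them. Of the 150-base windows of their annotated transcripts, the length of 1 sequencing read, 14.9% of Gsdmc2, 18.0% of Gsdmc3 and 8.83% of Gsdmc4 occurred also in another copy. The counts of the 3 genes were therefore summed as well. The sum was 7944, 9360 and 10220 reads for Nsd2 f/f and 9248, 56 and 13523 reads for Nsd2 Vil-KO. The fitted difference on the log2 scale was −0.63 (standard error 1.27, adjusted p = 0.996 by edgeR), −0.05 without Nsd2 Vil-KO replicate 2, and 0.28 without both libraries that stood apart. Gsdmc3 took 12.5%, 13.6% and 15.9% of the summed reads for Nsd2 f/f and 11.6%, 12.5% and 8.87% for Nsd2 Vil-KO. Gsdmc4 took 57.3% to 65.6% in the 5 libraries other than Nsd2 Vil-KO replicate 2, but 21.4% in that one (95% Wilson interval 12.7% to 33.8%), where Gsdmc2 took 66.1% (53.0% to 77.1%).

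On the side of Gsdmc4, the low values did not extend to the next gene past the cluster. Gsdmcl2, an annotated pseudogene between Gsdmc3 and Gsdmc4, had between 30.9 and 54.2 CPM in the other 5 libraries and 0 reads in Nsd2 Vil-KO replicate 2, below the floor of 0.166 CPM. Gsdmcl-ps, a pseudogene past Gsdmc4, had 1.13 to 5.31 CPM elsewhere and 0 reads there, while Gsdmcl1 had no read in any library. The neighbour Fam49b had 56.7, 49.6 and 43.1 CPM in Nsd2 f/f and 43.0, 38.2 and 44.3 CPM in Nsd2 Vil-KO, so it was present at a similar level in all 6. Myc, the proto-oncogene that is the nearest tested protein-coding gene on the other side, had 42.3, 56.4 and 22.8 CPM against 48.3, 12.6 and 36.7 CPM and was also lowest in Nsd2 Vil-KO replicate 2. Myc ends at base 61990374, far from Gsdmc2 at 63824346, whereas Fam49b begins at 63929097, close to Gsdmc4, which ends at 63912297. Gsdmc itself, on the Myc side of Gsdmc2, had 0 to 3 reads per library. These neighbours were chosen after the members' values were seen.

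**Figure D2:**
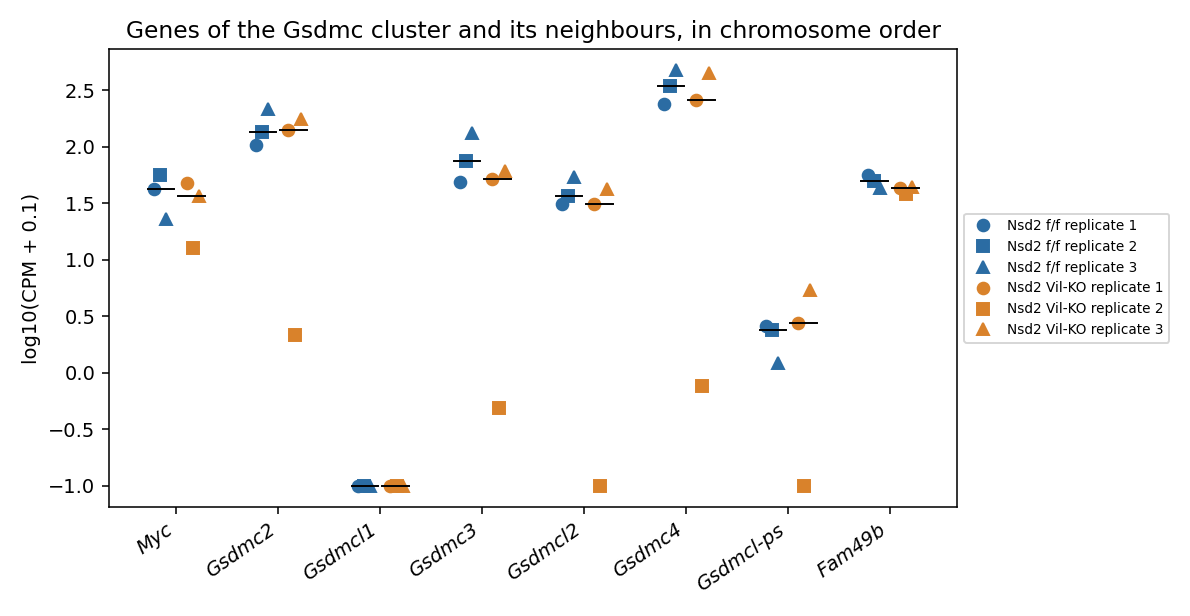
log10(CPM + 0.1) of the genes of the Gsdmc cluster and its neighbours in chromosome order, with 1 point per library and a line at the median of each genotype. In Nsd2 Vil-KO replicate 2 the 5 cluster genes that had reads fall to between 0 and 2.05 CPM, whereas Fam49b stays at 38.2 CPM. Gsdmcl1 had no reads and lies at the bottom in every library.

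Gsdmd, the gasdermin that the inflammatory caspases cleave, varied by 1.66-fold over the 6 libraries, including the one that nearly lacked Gsdmc reads. Gsdmd (ENSMUSG00000022575, chromosome 15, 75862327 to 75867408, plus strand) had 359.1, 335.4 and 220.9 CPM for Nsd2 f/f and 365.8, 302.8 and 312.2 CPM for Nsd2 Vil-KO. The genotypes overlapped, the lowest value was in Nsd2 f/f replicate 3, and the difference was 0.10 on the log2 scale (standard error 0.24, adjusted p = 0.996 by edgeR). Leaving out Nsd2 f/f replicate 3 gave −0.08, and leaving out both libraries that stood apart gave −0.02. Per kilobase of exon, the level of Gsdmd was between 0.245 and 0.833 of the 3 Gsdmc copies together in 5 libraries and 92.8 times theirs in Nsd2 Vil-KO replicate 2.

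Of the sensors, Aim2 differed most evenly between genotypes, and its product binds DNA in the cytosol. Aim2 (ENSMUSG00000037860, chromosome 1, 173350879 to 173466040, plus strand) had 77.3, 80.9 and 82.6 CPM for Nsd2 f/f and 95.3, 112.0 and 90.2 CPM for Nsd2 Vil-KO. Each Nsd2 Vil-KO library was above each Nsd2 f/f library, also with DESeq2-type size factors and with library size only. The means were 80.3 ± 2.67 and 99.1 ± 11.4 CPM (SD, n = 3 each). The log2 fold change was 0.30 (standard error 0.16, unadjusted p = 0.103, adjusted p = 0.992 by edgeR). The exact permutation test gave its smallest possible p of 0.1 (two-sided), as it does for every gene whose genotypes do not overlap. Leaving out each library in turn gave values from 0.21 to 0.37, and leaving out both libraries that stood apart gave 0.24 (unadjusted p = 0.0607, adjusted p = 0.462 by edgeR). When a term for Xist transcripts was added, Aim2 was the only member past the criterion, at 0.30 (standard error 0.12, unadjusted p = 0.0407 by edgeR). In that fit 1145 of 14650 genes passed.

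Nlrp6, whose product senses microbial ligands and is known for its part in the colonic mucus barrier, was abundant and variable. Nlrp6 (ENSMUSG00000038745, chromosome 7, 140920902 to 140929192, plus strand) had 213.9, 325.6 and 452.6 CPM for Nsd2 f/f and 302.0, 144.7 and 311.1 CPM for Nsd2 Vil-KO. Both the highest and the lowest library were those that stood apart, and the genotypes overlapped. The fitted difference, −0.39 on the log2 scale (standard error 0.38, adjusted p = 0.992 by edgeR), changed sign to 0.20 without these 2 libraries.

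Pycard, the adaptor gene, had lower values in Nsd2 Vil-KO by a margin that did not pass the test. Pycard (ENSMUSG00000030793, chromosome 7, 127989708 to 127993867, minus strand) had 74.4, 68.9 and 97.2 CPM for Nsd2 f/f and 66.8, 58.0 and 63.2 CPM for Nsd2 Vil-KO. The genotypes did not overlap under TMM or DESeq2-type scaling, but they overlapped with library size only. The log2 fold change was −0.35 (standard error 0.19, unadjusted p = 0.101, adjusted p = 0.992 by edgeR, exact permutation p = 0.1, two-sided) and −0.13 without the libraries that stood apart. Exons of Gm45205 on the opposite strand cover 12.8% of its exon bases, so its count can include those reads if strand was not used.

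The inflammatory caspase genes, which are neighbours on chromosome 9, did not separate by genotype. Casp1 (ENSMUSG00000025888, 5298517 to 5307265, plus strand) had 138.9, 170.9 and 202.4 CPM for Nsd2 f/f and 168.3, 114.6 and 171.6 CPM for Nsd2 Vil-KO. The difference was −0.17 on the log2 scale (standard error 0.24, adjusted p = 0.993 by edgeR) and 0.14 without the libraries that stood apart. Casp4 (ENSMUSG00000033538, 5308828 to 5336783, plus strand), whose product is activated by cytosolic lipopolysaccharide, had 51.1, 57.0 and 35.3 CPM against 50.8, 61.1 and 63.4 CPM. The difference was 0.29 (standard error 0.22, adjusted p = 0.992 by edgeR) and 0.09 without the libraries that stood apart. Nsd2 f/f replicate 3 was the highest library for Casp1 and the lowest for Casp4.

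Il18 (ENSMUSG00000039217, chromosome 9, 50554827 to 50581840, plus strand) had 104.1, 102.6 and 228.6 CPM for Nsd2 f/f and 113.0, 221.6 and 130.0 CPM for Nsd2 Vil-KO. Its highest values were in the libraries that stood apart, 1 of each genotype, and the other 4 lay between 102.6 and 130.0 CPM. On the log2 scale the genotypes differed by 0.09 (standard error 0.40, adjusted p = 0.999 by edgeR). Leaving out Nsd2 Vil-KO replicate 2 gave −0.26, leaving out Nsd2 f/f replicate 3 gave 0.59, and leaving out both gave 0.24 (unadjusted p = 0.0685, adjusted p = 0.476 by edgeR).

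**Figure D3:**
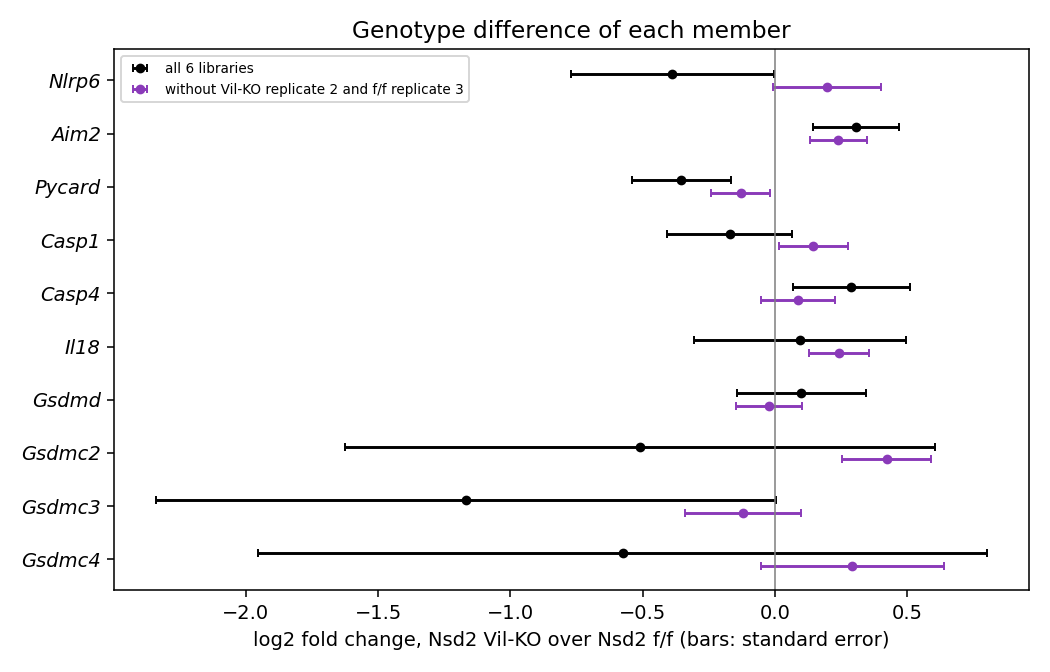
Log2 fold change of each member, Nsd2 Vil-KO over Nsd2 f/f, with bars of 1 standard error, from all 6 libraries (black) and without the pair of libraries that stood apart (purple). Aim2 lies above 0 and Pycard below 0 in both, whereas Nlrp6, Casp1, Gsdmd, Gsdmc2 and Gsdmc4 change sign.

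Levels of different genes were compared as CPM per kilobase of exon, by the median of the 6 libraries. Gsdmc4 was highest at 144.2, followed by Gsdmd at 136.2, Il18 at 117.8 and Casp1 at 113.3. Nlrp6 at 60.3 and Gsdmc2 at 59.4 came next, then Aim2 at 24.7, Gsdmc3 at 24.4, Pycard at 17.9 and Casp4 at 14.6. The ranges over the 6 libraries overlapped for each adjoining pair. Within libraries, however, Casp1 was above Nlrp6 in 6 of 6, with ranges of 76.6 to 135.2 and 28.5 to 89.1, and Gsdmc2 was above Aim2 and Gsdmc3 above Pycard in 5 of 6, Nsd2 Vil-KO replicate 2 being the exception. For the other 6 adjoining pairs the gene with the higher median was above its neighbour in 2 to 4 of 6 libraries. The medians of Gsdmc2 and Aim2 stood 2.41-fold apart and those of Casp1 and Nlrp6 1.88-fold. Across the 6 libraries, 5 members (Aim2, Pycard, Casp1, Casp4 and Gsdmd) varied by less than 2-fold and 3 (the Gsdmc copies) by more than 100-fold.

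The genes whose pattern was most like a member's were sought by Pearson correlation of log2 CPM over the 6 libraries among 13331 genes, as a description. For the summed Gsdmc copies they were Ppm1h, Zfp976 and Taf6l (r = 0.999 each), and for Nlrp6 they were Trip4, Gca and Fbxl12os (r = 0.997, 0.993 and 0.991). The former rest on 1 library, since Ppm1h had 46.7 to 51.5 CPM in 5 libraries and 23.6 CPM in Nsd2 Vil-KO replicate 2, a far smaller drop than that of the Gsdmc genes. Zfp976 and Taf6l were likewise lowest there, at 2.27 and 2.55 CPM against at least 5.70 and 8.37 CPM.

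Of 55 other genes of the pathway, 47 were tested and 1 passed the criterion (2.13%, against 3.29% of all genes), and 0 reached an adjusted p below 0.05 by edgeR, DESeq2 or limma-voom. The median of their log2 fold changes was −0.05, with 21 positive and 26 negative. An unadjusted p below 0.05 was reached by 1 gene in edgeR, 1 in DESeq2 and 3 in limma-voom. The remaining 8 genes, among them Gsdma2, Gsdma3, Nlrp1a and Nlrp12, did not pass the filter on low counts. The gene that passed was Clca1, which encodes a protein of goblet cell mucus and belongs to the list of IL-4 and IL-13 responses. Clca1 had 885.7, 957.5 and 2281 CPM for Nsd2 f/f and 514.6, 147.7 and 657.6 CPM for Nsd2 Vil-KO, without overlap. Its log2 fold change was −1.64 (standard error 0.62, unadjusted p = 0.0317, adjusted p = 0.992 by edgeR). The 5 goblet cell markers, which share its cell type, summed to between 10868 and 12428 CPM for Nsd2 f/f and to between 6984 and 9026 CPM for Nsd2 Vil-KO, without overlap of the sums, although each single marker overlapped, and with none at 0, and their part in the difference was not tested. Clca1 no longer passed the criterion without Nsd2 Vil-KO replicate 1 or without Nsd2 f/f replicate 3, nor with a term for Xist transcripts. Leaving out single libraries gave counts of 1 to 4 pathway genes, namely 4 without Nsd2 f/f replicate 3 and 2 without each of Nsd2 f/f replicate 1 and Nsd2 Vil-KO replicates 1 and 2. Without both libraries that stood apart, 10 passed (21.3%, against 10.95% of all genes tested in that fit), 3 with a higher and 7 with a lower level in Nsd2 Vil-KO. Among them were Clca1, Gbp3, Gbp7, Il18bp, Naip1 and Nlrc4.

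Of 17 tested sensors and partners, 0 passed the criterion, and 9 were higher and 8 lower. The epithelial flagellin and secretion system receptors were abundant: Naip1 had 246.9, 238.1 and 311.4 CPM for Nsd2 f/f and 300.9, 183.1 and 301.2 CPM for Nsd2 Vil-KO. Their partner Nlrc4 had 32.7, 28.4 and 25.4 CPM in Nsd2 f/f and 37.5, 31.4 and 40.0 CPM in Nsd2 Vil-KO, a log2 fold change of 0.33 (standard error 0.19). Nlrp1b, a sensor gene whose product is activated by bacterial protease, was low in the library that nearly lacked Gsdmc reads, with 18.0 to 36.8 CPM in 5 libraries and 1.997 CPM in Nsd2 Vil-KO replicate 2. Nlrp9b, which is known as an intestinal sensor of viral RNA, had 50.98 to 70.1 CPM in the same 5 libraries and 20.1 CPM there. Nek7, which encodes a partner of NLRP3, and Txnip were by contrast highest in that library, at 105.3 and 1035 CPM, against 36.5 to 43.7 and 275.3 to 578.8 CPM elsewhere. The genotypes did not overlap for 2 of the 47 tested pathway genes, Clca1 and Dpp9, against 9.9% of all genes tested. Dpp9, whose product is a protease that restrains NLRP1 proteins, had 57.1, 64.1 and 54.9 CPM against 70.2, 69.8 and 68.7 CPM. Its log2 fold change was 0.25 (standard error 0.15, unadjusted p = 0.15, adjusted p = 0.992 by edgeR). Reads of the Naip genes, which are close copies, can be divided between them.

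Il1b and Nlrp3, genes typical of myeloid cells, were highest and lowest in the same libraries as the sum of general leukocyte markers. The sum of neutrophil markers was highest in another library. Of 9 tested cytokine and receptor genes, 0 passed the criterion, with 2 higher, 7 lower and a median log2 fold change of −0.41. Il1b had 424.3, 66.1 and 2.34 CPM for Nsd2 f/f and 107.3, 5.88 and 7.76 CPM for Nsd2 Vil-KO. Nlrp3 had 16.7, 2.07 and 0.0808 CPM against 3.75, 0.666 and 0.562 CPM. The 3 leukocyte markers summed to 101.8, 52.5 and 17.1 CPM in Nsd2 f/f and 44.8, 18.3 and 24.7 CPM in Nsd2 Vil-KO, with none at 0. Il1b and Nlrp3 were thus highest where leukocyte markers were highest, and lowest in Nsd2 f/f replicate 3, where those markers were lowest. Their log2 fold changes were −2.03 (standard error 1.66) and −1.93 (1.33), and the part of leukocytes in them was not tested. Il18bp, which encodes a soluble inhibitor of IL-18, had 46.1, 66.9 and 7.11 CPM against 35.4, 18.1 and 40.6 CPM, lowest in the libraries that stood apart, where Il18 was highest. The 8 macrophage and monocyte markers summed to 451.7, 208.0 and 109.1 CPM for Nsd2 f/f and 245.1, 172.9 and 276.8 CPM for Nsd2 Vil-KO. Cd14 made up most of this sum, and each other marker of the list was highest in Nsd2 f/f replicate 1. The 5 neutrophil markers summed to 646.8, 92.4 and 9.45 CPM and 99.9, 997.6 and 34.7 CPM, highest in Nsd2 Vil-KO replicate 2 where Il1b was at 5.88 CPM. That peak was mostly S100a8 and S100a9, at 573.9 and 404.9 CPM, whereas Csf3r was lowest there, at 0.666 CPM. Csf3r, Cxcr2 and Retnlg were highest in Nsd2 f/f replicate 1, at 31.0, 12.5 and 48.7 CPM. Cxcr2 and Adgre1 were at 0 in Nsd2 f/f replicate 3. Among the members, Casp4 and Gsdmd were likewise lowest in Nsd2 f/f replicate 3, and Aim2 was lowest in Nsd2 f/f replicate 1, which had the most leukocyte markers. The part of leukocytes in the members' levels was not tested.

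The Gbp genes, which act upstream of caspase-11, had their lowest values in the libraries that stood apart. The list of guanylate-binding proteins, which expose bacterial lipopolysaccharide, and of interferon factors held 8 tested genes, 7 of them lower and 0 past the criterion (median log2 fold change −0.37). Gbp2 had 272.4, 127.7 and 11.1 CPM in Nsd2 f/f and 109.3, 19.1 and 177.0 CPM in Nsd2 Vil-KO, and Gbp3, Gbp5 and Gbp7 were lowest in the same libraries. Irf2, a transcription factor gene known to drive Gsdmd, had 54.4, 52.4 and 111.2 CPM against 56.1, 63.9 and 53.0 CPM, and Nsd2 f/f replicate 3, its highest library, was the lowest for Gsdmd. Of the 4 other caspases, 3 were higher and 0 passed the criterion. Of the 3 tested pore-forming and rupture genes, Gsdme had 9.40 to 11.1 CPM in all 6 libraries and Ninj1 16.0 to 30.5 CPM.

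The 9 genes of the IL-4 and IL-13 axis were listed because type 2 cytokines are known inducers of the Gsdmc genes. Transcripts of Il4, Il13 and Il25 were too few to be tested, at 0.404 CPM or less in each library. In Nsd2 Vil-KO replicate 2 the receptor gene Il4ra was at 137.8 CPM, its highest value. There the receptor gene Il13ra1, at 117.7 CPM, and the signalling gene Stat6, at 67.5 CPM, were just below the lowest of the other libraries, 121.8 and 71.3 CPM. Retnlb, a resistin-like protein gene of goblet cells, had its highest value there, 862.5 CPM, against 86.9 to 472.0 CPM in the other 5 libraries, whereas Clca1 of the same list had its lowest, 147.7 CPM against 514.6 to 2281 CPM. The goblet cell markers, 5 in number, summed to 6984 CPM in that library and to 8699 to 12428 CPM elsewhere. Muc2 and Fcgbp were lowest there, at 2246 and 444.2 CPM, whereas Tff3, Spink4 and Zg16 were higher than in both other Nsd2 Vil-KO libraries. The colonocyte markers, 4 in number, summed to 1229 CPM there and to 5212 CPM in Nsd2 f/f replicate 3, against 1281 to 1717 CPM in the other 4. Slc26a3, Car4 and Aqp8 were lowest there, but Car1, at 598.6 CPM, was higher only in Nsd2 f/f replicate 3. The part of these cell types in the low Gsdmc values was not tested.

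**Figure D4:**
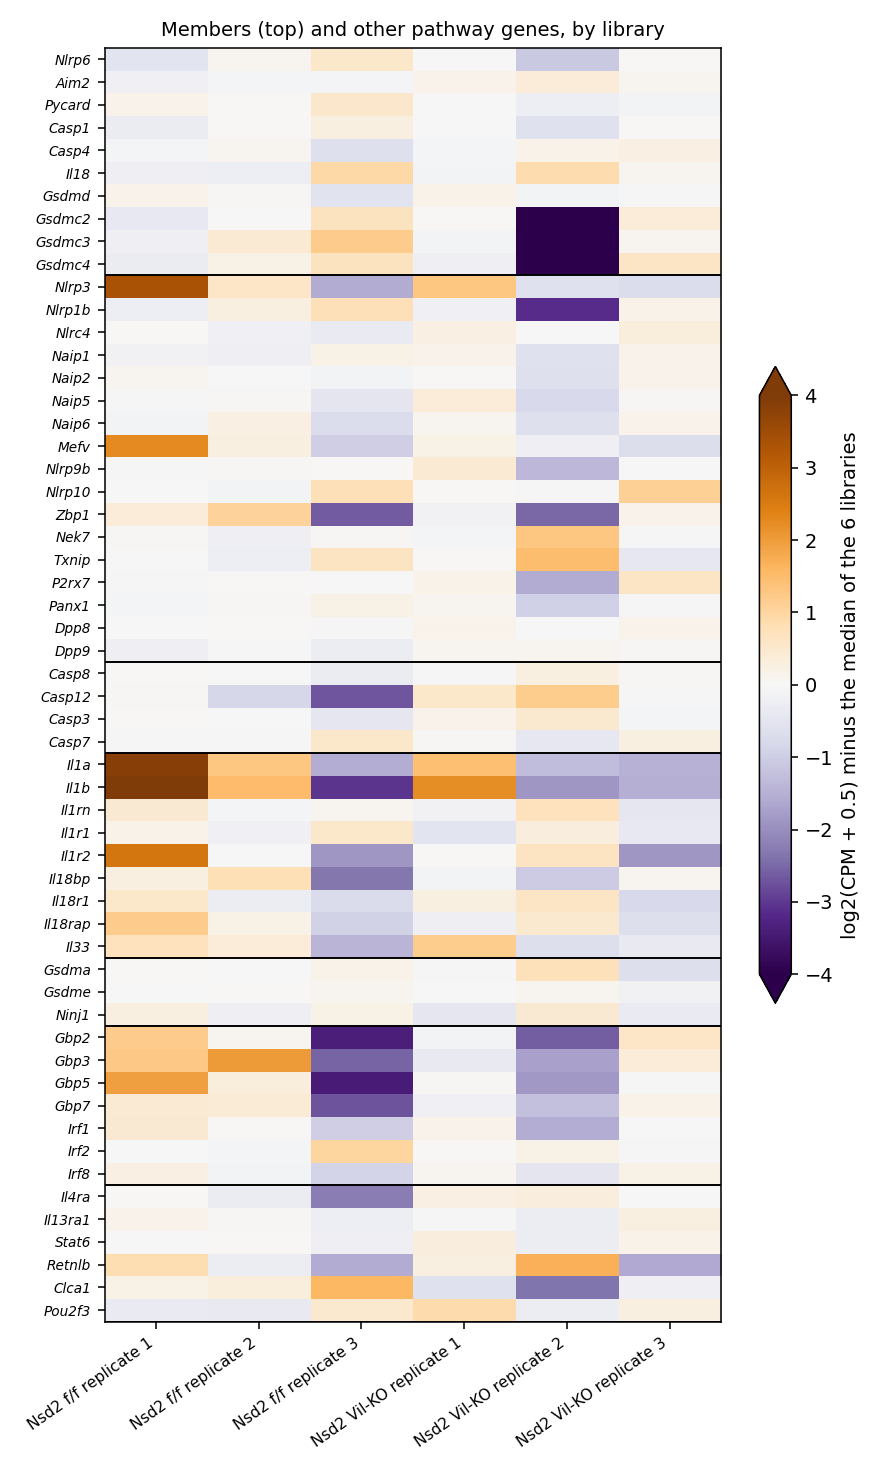
Log2(CPM + 0.5) minus the median of the 6 libraries for the 10 members (top block) and 46 other tested pathway genes, with the colour scale capped at 4 in both directions. The darkest cells among the members are Gsdmc2, Gsdmc3 and Gsdmc4 in Nsd2 Vil-KO replicate 2. Nlrp3, Il1a and Il1b are highest in Nsd2 f/f replicate 1, and the Gbp genes are lowest in Nsd2 f/f replicate 3.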

How the data were processed

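RNA-seq of 6 colon IEC libraries, 3 Nsd2 f/f and 3 Nsd2 Vil-KO, was analysed. The authors deposited raw counts, whole numbers of reads per Ensembl gene, without normalisation. Per the methods, polyA RNA was sequenced in paired ends of directional libraries, trimmed with Cutadapt and Trimmomatic, and aligned to GRCm38 with HISAT2, which the submitters' processing notes also name. The labels name another library kit. Which program counted the reads, and whether by strand, is not given in the sources used here. The study's own comparison used FPKM from StringTie and Ballgown, and edgeR was used here because the table holds counts. Each of the 6 columns was used and 0 were left out. Depth ranged from 15439123 to 20350539 counts.

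Counts were normalised by TMM, kept by filterByExpr (14650 genes) and compared in edgeR 4.0.16 (R 4.3.3) by the robust quasi-likelihood test without covariates, with Benjamini-Hochberg adjustment over all tested genes. Exact permutation tests (two-sided, smallest p 0.1) were made on log2(CPM + 0.1), and Poisson and Wilson intervals cover counting error only. Coordinates and exon lengths came from GENCODE vM21, which held 99.4% of the listed IDs. The script was tested on simulated data. Alternatives covered scaling, no filter or a minimum of 10 counts in all libraries, DESeq2 1.42.0, limma 3.58.1 (voom with quality weights), robust estimation, a replicate block, Xist presence as a covariate, mitochondrial genes, the criterion and left-out libraries. Named were all members, Nsd2, pathway genes that passed or have a role beside a member, marker sums, and the 3 genes most alike to the summed Gsdmc copies and to Nlrp6. Members, lists and the libraries left out together were chosen with earlier results of these data known. Values of 1 pathway gene are not reported here.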

Additional observations from a re-analysis of the deposited data

How the results depend on the processing

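The count of 0 members past the criterion was the same in 12 other settings and with each library left out (0 to 0). It was 1 without both libraries that stood apart (Gsdmc2) and 1 with Xist presence as a covariate (Aim2). In the reported fit 0 members had an unadjusted p below 0.05 at any fold change by edgeR. The settings of a fold change above 2 and of an adjusted p below 0.05, cuts on that fit, could therefore only give 0. Counts of the other pathway genes, 1 in the reported fit, were 3 with limma-voom, 3 with the replicate block, 10 without both libraries that stood apart, 2 with the Xist covariate and 0 at an adjusted p below 0.05, and 1 to 4 with each library left out. Of all tested genes, 482 passed, against 861 without a filter, 1421 with limma-voom, 303 with the replicate block, 1646 without both libraries, 1145 with the Xist covariate and 0 at an adjusted p below 0.05 by edgeR, and 323 to 769 with each library left out (769 without Nsd2 Vil-KO replicate 2). Nsd2 had −1.12 with library size only (unadjusted p = 0.0617 by edgeR) and −1.42 to −0.87 with each library left out, no longer past the criterion without Nsd2 f/f replicate 1 (−1.04) or 2 (−0.97).

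Directions turned in 1 or more settings for Nlrp6, Casp1, Il18, Gsdmd, Gsdmc2, Gsdmc4 and the summed copies. That of Il18 turned in 3 of the 6 fits with a single library left out. With limma-voom the log2 fold changes were 0.083 for Nlrp6, 0.075 for Casp1, −0.0088 for Gsdmd and 0.12 for Gsdmc2. Without both libraries that stood apart they were 0.20 for Nlrp6, 0.14 for Casp1, −0.023 for Gsdmd, 0.42 for Gsdmc2, 0.29 for Gsdmc4 and 0.28 for the summed copies. With each library left out the ranges were −0.26 to 0.59 for Il18, −0.084 to 0.23 for Gsdmd, −1.09 to 0.064 for Gsdmc2, −1.45 to 0.0092 for Gsdmc4 and −1.38 to −0.05 for the sum. The cause was not tested. Aim2, Pycard, Casp4 and Gsdmc3 kept their direction in all settings that gave a value, Gsdmc3 having none with at least 10 counts required in each library. Adjusted p ranged over the settings from 0.441 to 1.0 for the members and from 0.119 to 1.0 for Nsd2, by the tools named. Correlations of same-numbered libraries' deviations were 0.322, −0.35 and −0.108, and not every library correlated best with its own number. With 3 libraries per genotype these values cannot decide whether the numbers pair the samples. The replicate block is therefore given as an alternative only. Depth as a limit was not tested. The members had at least 437 reads in every library, except Gsdmc2, Gsdmc3 and Gsdmc4 in Nsd2 Vil-KO replicate 2, at 37, 7 and 12. The precision was limited by 3 libraries per genotype, and for Gsdmc2, Gsdmc3 and Gsdmc4 by the difference of 1 library from the others. The biological coefficient of variation, fitted in common to all genes, was 41.2% and does not measure the spread of single members. Their standard errors ran from 0.16 for Aim2 to 1.38 for Gsdmc4.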

Other observations

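Few genes were reduced as far as the Gsdmc copies in a single library. Of 8268 genes with at least 10 CPM in the 5 libraries other than Nsd2 Vil-KO replicate 2, 8 were at least 20-fold lower there, a limit chosen after the values were seen. They were Gsdmc2, Gsdmc3, Gsdmc4, the pseudogene Gsdmcl2 (at least 186-fold lower, against a floor of 3 counts in that library), Scd1, Mptx1, Gm45912 and Gm8979. Scd1, which encodes a fatty acid desaturase, had 0.777 CPM there and 43.5 to 94.6 CPM elsewhere. Mptx1, which encodes a mucosal pentraxin of the intestine, had 2.11 CPM there and 100.6 to 1687 CPM elsewhere. By the same rule 6 of 8159 genes were low in Nsd2 f/f replicate 3, and 0 in each of the other 4 libraries.

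The sums of the other cell type markers overlapped between the genotypes for all lists but the endothelial one. Among single markers of these lists only Cd2, Cd79b and Pecam1 did not overlap, all lower in Nsd2 Vil-KO. Of all genes tested, 9.9% did not overlap and 4.7% were lower without overlap. The counts were small, at 12 to 17 reads per library for Cd2, 5 to 55 for Cd79b and 9 to 48 for Pecam1. The 5 fibroblast markers summed to 259.6, 55.9 and 5.57 CPM for Nsd2 f/f and 68.6, 4.94 and 15.2 CPM for Nsd2 Vil-KO. T cell and intraepithelial lymphocyte markers, 7 in number, summed to between 8.64 and 34.3 CPM over the 6 libraries, and 5 B and plasma cell markers to between 6.05 and 47.1 CPM, with Mzb1 at 0 in 3 libraries. Smooth muscle markers (3) summed to at most 14.1 CPM and endothelial markers (3) to between 2.13 and 3.27 CPM for Nsd2 f/f and between 0.610 and 2.05 CPM for Nsd2 Vil-KO.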
